A study of Mus musculus with 3 samples.

Results

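Heat shock and immediate early genes were followed in brain nuclei of uninjured C57BL/6 mice in which neurons that project to the lumbar cord carried a retrograde fluorescent label. The 10 genes, chosen by name out of 32285 measured, were Hspa8, Hspa1a, Hspa1b, Hsph1 and Dnajb1 for heat shock and Fos, Jun, Egr1, Atf3 and Gadd45b for the early response. Fluorescent tissue was dissected from sagittal slices, flash frozen and later homogenised, and nuclei were sorted and counted in droplets by unique molecular identifiers (UMIs, a count of captured RNA molecules). There were 3 libraries, labelled as replicates 1, 2 and 3 of 1 uninjured group, so no treatment was compared. How many animals gave each library, and which tracer was used, is not stated in the labels. The p-values below measure how class differences within libraries varied from library to library, a spread that may be technical. Of 17517 barcodes, 9027 nuclei had at least 1000 detected genes and at most 5% mitochondrial UMIs, with 2679, 2769 and 3579 of them in replicates 1, 2 and 3.

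Nuclei were split by transcripts outside the list. Cortical nuclei had at least 300 CPM (UMIs scaled to a fixed total per nucleus or sum) of Tox and numbered 953, 1454 and 1800 by replicate. Hindbrain nuclei had less Tox and at least 200 CPM of Meis1 and Meis2 together and numbered 1038, 816 and 1165. The remaining 688, 499 and 614 nuclei met neither limit. Both limits took no account of depth. In the shallowest nuclei, of 1281, 1417 and 1458 UMIs by replicate, a single UMI of Tox, or of Meis1 or Meis2, was enough to meet its limit. Class therefore depends in part on depth, and a shallow remaining nucleus can be one where none of these transcripts was captured. The summed level of 8 cortical projection markers was 1163 to 1193 CPM in cortical nuclei, 238 to 313 CPM in hindbrain nuclei and 444 to 507 CPM in remaining nuclei. The summed level of 9 hindbrain markers was 11.7 to 13.7 CPM in cortical nuclei, 166 to 204 CPM in hindbrain nuclei and 108 to 135 CPM in remaining nuclei. The remaining nuclei thus carried both marker sets and are a leftover group, not a cell type. The sum of 6 markers of other projection classes was highest in it, at 32.2 to 90.8 CPM in cortical, 60.7 to 132 CPM in hindbrain and 189 to 272 CPM in remaining nuclei. Of these, Hcrt had 115 to 212 CPM, Ttc6 28.6 to 31.4 CPM, Sim1 15.0 to 24 CPM and Pou4f1 4.04 to 6.65 CPM in remaining nuclei, so Hcrt made up most of the sum. Dbh and Tph2 went the other way and were higher in hindbrain than in remaining nuclei of each library. Dbh had 1.19, 4.67 and 2.59 CPM in hindbrain nuclei, against 1.10, 0.733 and 1.39 CPM. Tph2 had 12.3, 1.67 and 14.5 CPM, against 3.68, 1.10 and 12.6 CPM. The limits cut a range, since 367, 623 and 582 cortical nuclei had 300 to 600 CPM of Tox, and 263, 210 and 265 nuclei of the other classes had 150 to 300 CPM.

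The heat shock response copes with unfolded protein. Heat shock factor binds short repeated elements in promoters and switches on chaperones within minutes. Hspa1a and Hspa1b are neighbouring copies that encode the inducible chaperone HSP70. Hspa8 encodes its constitutive relative HSC70, Dnajb1 encodes an HSP40 partner that delivers clients, and Hsph1 encodes HSP110, which helps HSP70 release its nucleotide. Immediate early genes are transcribed without new protein synthesis, after neuronal activity or after stress. Fos and Jun encode the AP-1 factors and Egr1 a zinc finger factor induced by synaptic activity. Atf3 encodes a stress factor known as a marker of axotomised neurons, and Gadd45b is a stress-inducible gene that also acts in DNA demethylation. Dissociation and handling of tissue can induce both groups.

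The genes differ in structure. On GRCm38 (GENCODE M21), Hspa1a lies at chr17:34969190-34972156 and Hspa1b at chr17:34956436-34959238, both on the minus strand and each with 1 exon. Jun (chr4:95049034-95052222, minus strand) also has 1 exon. Dnajb1 (chr8:83608193-83612653), Fos (chr12:85473890-85477273), Gadd45b (chr10:80930073-80932204) and Hspa8 (chr9:40800984-40810087) are on the plus strand, and their longest transcripts have 3, 4, 4 and 9 exons. Hsph1 (chr5:149614287-149636376) and Atf3 (chr1:191170296-191218039) are on the minus strand, with 18 and 4 exons. The coding sequences of Hspa1a and Hspa1b were identical at 1915 of 1926 bases, while their last 300 transcript bases were 45.2% identical. Reads in the coding part could therefore be split or lost between the copies, and their separate levels are uncertain.

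The promoters shown here are of Hspa1a, Hspa1b and the early genes that followed them most closely in nuclei, Atf3 and Gadd45b. Each runs up to the base before the exon that begins at the listed start, 5′ to 3′ on the gene's strand (RefSeq, GRCm38.p6). Hspa1a is chr17:34972157-34972306, Hspa1b chr17:34959239-34959388, Atf3 chr1:191183341-191183483 and Gadd45b chr10:80929941-80930072. The Atf3 stretch precedes the start of its longest spliced transcript and lies in an intron of another transcript, which begins farther upstream at the gene's outer end. Capitals mark the core of a heat shock element, searched as GAANNTTC or TTCNNGAA, which read the same on both strands.
Hspa1a: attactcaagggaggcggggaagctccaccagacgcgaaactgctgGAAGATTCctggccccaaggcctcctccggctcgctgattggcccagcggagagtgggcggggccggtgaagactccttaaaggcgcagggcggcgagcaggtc
Hspa1b: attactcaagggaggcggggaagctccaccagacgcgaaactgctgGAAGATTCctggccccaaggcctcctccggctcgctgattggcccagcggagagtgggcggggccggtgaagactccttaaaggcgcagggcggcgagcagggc
Atf3: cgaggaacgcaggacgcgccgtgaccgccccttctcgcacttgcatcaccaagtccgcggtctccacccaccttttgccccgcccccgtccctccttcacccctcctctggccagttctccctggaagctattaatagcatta
Gadd45b: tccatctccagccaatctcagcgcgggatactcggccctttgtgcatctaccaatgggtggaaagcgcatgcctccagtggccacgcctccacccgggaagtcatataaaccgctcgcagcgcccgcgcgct
The Hspa1a and Hspa1b stretches differed at 1 base, and both held the element 104 bases before the start. Promoters of 300 bases, which end 50 bases after the start, were listed for 8 of the 10 genes, and the first listed start was used. The element was found in those of Hspa1a, Hspa1b, Hsph1 and Jun, in Hsph1 at 3 places and in Jun at 128 bases before the start. Jun was also found in nuclei together with Hspa1a or Hspa1b, but its promoter is not shown above. The element was not found in the windows of Dnajb1, Fos, Atf3 and Gadd45b. Of 27025 mouse promoters of this length, 15.1% held it. The cyclic AMP response element TGACGTCA was found in 1.88% of them and in none of the 8.

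The libraries held 27400346, 68396825 and 60403046 UMIs within the limits, with medians of 8270, 19493 and 14388 UMIs per nucleus. Cortical nuclei were the deepest class in every library, with medians of 12325, 26360 and 19340 UMIs, against 6466, 13138 and 10046 UMIs in remaining nuclei. Pairs of libraries shared 10, 2 and 8 barcodes, of which 3, 2 and 1 were within the limits. Doublets were kept, and a caller marked 15, 59 and 52 nuclei. Replicate 2 held 8325 barcodes outside the limits, which enter no comparison.

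Over all nuclei, the genes fell into those that were even between libraries and those that were not. Jun was the evenest, at 10.8, 10.2 and 10.6 CPM in replicates 1, 2 and 3, and Hsph1 had 34.5, 37.3 and 36.7 CPM. Hspa8 had 91.6, 101 and 83.7 CPM, and Dnajb1 had 5.18, 7.16 and 5.38 CPM. These 4 genes differed by at most 1.38-fold between libraries. Hspa1a had 16.2, 3.23 and 15.1 CPM, and Hspa1b had 7.81, 1.78 and 6.72 CPM. Atf3 had 10.1, 1.87 and 5.02 CPM, and Gadd45b had 27.7, 12.2 and 25.2 CPM. Replicate 2, the deepest library, was the lowest of the 3 for all 4 of these stress genes, by 5.00-fold for Hspa1a and 5.40-fold for Atf3 against the highest library. The activity-linked genes had another order over all nuclei, with replicate 1 the lowest. Fos had 1.06, 1.97 and 3.06 CPM and Egr1 had 13.5, 19.6 and 18.1 CPM. Replicate 1 was also the lowest for both in cortical nuclei and for Fos in hindbrain nuclei. Replicate 2 was the lowest for Egr1 in hindbrain nuclei and for both in remaining nuclei, where Egr1 had 25.0, 19.0 and 24.5 CPM. Replicates of 1 group were not tested against each other.

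Among classes, Hspa1a stood highest in remaining nuclei. It had 9.16, 1.11 and 4.02 CPM in cortical nuclei of replicates 1, 2 and 3, 14.8, 2.23 and 15.0 CPM in hindbrain nuclei and 35.7, 16.8 and 75.4 CPM in remaining nuclei. The lowest remaining value exceeded every value of the other classes, but it rested on 138 UMIs in 21 nuclei of replicate 2. A single nucleus held 71 of these UMIs. Hspa1a was detected in 3.37% of cortical, 2.70% of hindbrain and 4.21% of remaining nuclei of that replicate. Hspa1b had 3.77, 1.16 and 2.27 CPM in cortical nuclei, 9.26, 0.906 and 9.21 CPM in hindbrain nuclei and 15.6, 6.84 and 26.2 CPM in remaining nuclei. Its groups overlapped between libraries, but remaining nuclei were highest within each library. Atf3 had 6.28, 0.611 and 2.39 CPM in cortical, 11.2, 1.88 and 4.32 CPM in hindbrain and 18.0, 8.91 and 20.7 CPM in remaining nuclei. Gadd45b had 16.0, 11.7 and 15.3 CPM in cortical, 25.2, 8.57 and 27.3 CPM in hindbrain and 60.8, 21.1 and 75.0 CPM in remaining nuclei. Both were highest in remaining nuclei of each library, and the lowest remaining value lay within the range of hindbrain nuclei. Jun had 6.21, 7.35 and 5.93 CPM in cortical, 11.6, 16.2 and 14.3 CPM in hindbrain and 21.0, 16.1 and 29.2 CPM in remaining nuclei, and every cortical value lay under every other value.

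Of the other 5 genes, Hspa8 rose from cortical to hindbrain to remaining nuclei with no overlap, and the rest overlapped between some classes. Dnajb1 did not overlap between cortical and remaining nuclei, nor did Egr1 between hindbrain and remaining nuclei. How many of all genes had classes without overlap was not counted. Hspa8 had 54.5, 81.5 and 60.5 CPM in cortical, 105, 137 and 109 CPM in hindbrain and 163, 148 and 161 CPM in remaining nuclei. Dnajb1 had 3.10, 5.76 and 4.15 CPM in cortical, 5.46, 10.1 and 7.41 CPM in hindbrain and 9.93, 9.89 and 8.18 CPM in remaining nuclei. Hsph1 was nearly flat, with 36.5, 36.8 and 36.6 CPM in cortical, 30.5, 38.3 and 33.2 CPM in hindbrain and 35.8, 38.5 and 44.1 CPM in remaining nuclei. Egr1, which has 2 exons and lies on the plus strand at chr18:34859823-34864984, was lowest in hindbrain nuclei, with 10.8, 22.6 and 19.4 CPM in cortical, 10.6, 10.4 and 11.2 CPM in hindbrain and 25.0, 19.0 and 24.5 CPM in remaining nuclei. Fos was the sparsest, with 0.591, 2.07 and 2.52 CPM in cortical, 0.831, 1.74 and 3.74 CPM in hindbrain and 2.57, 1.83 and 4.71 CPM in remaining nuclei, and its classes overlapped.

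**Figure D1:**
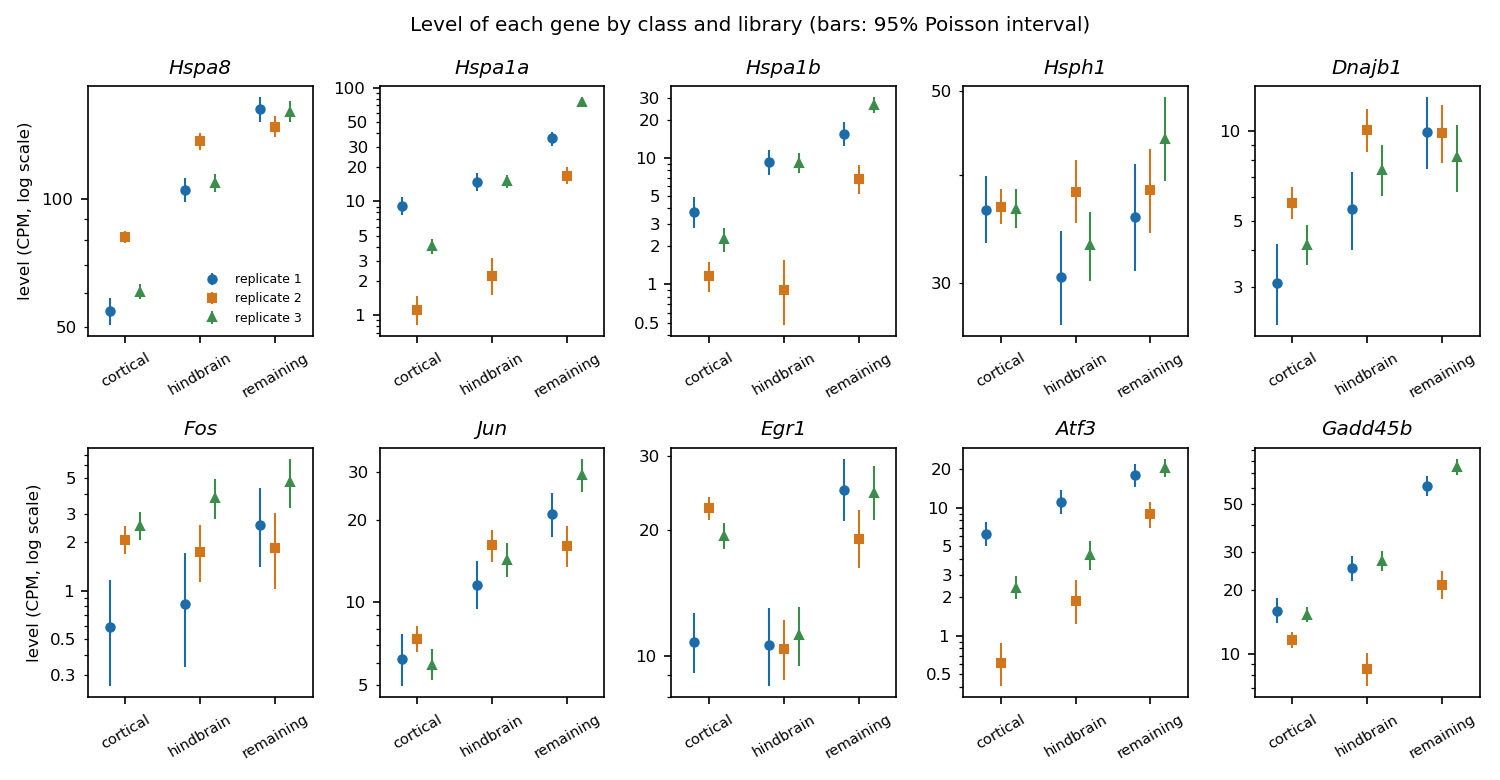
Level of each gene in CPM (log axis, scaled per gene) in cortical, hindbrain and remaining nuclei, with 1 point per library and exact 95% Poisson intervals that cover counting error only. Hspa1a, Hspa1b, Atf3 and Gadd45b are highest in remaining nuclei of each library and lowest in replicate 2, while Hsph1 stays between 30.5 and 44.1 CPM.

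Classes were compared on UMIs summed per library with edgeR's quasi-likelihood test, with TMM scaling and the library as a block, over 18845 genes. Calls needed both a Benjamini-Hochberg adjusted p under 0.05 and a log2 fold change of 1 or more in size. TMM moved the median gene by 0.45 on the log2 scale in cortical against hindbrain nuclei and by 0.48 in cortical against remaining nuclei, relative to plain library totals. Log2 fold changes are therefore higher in cortical nuclei than the CPM above would give.

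In cortical against remaining nuclei, 5 of the 10 genes were called lower, where 16.0% of all tested genes were, and 0 were called higher, where 5.64% were. Hspa1a fell by 2.91 (SE 0.33, edgeR adjusted p = 1.65e-05) and Hspa1b by 2.28 (SE 0.34, edgeR adjusted p = 1.27e-04) on the log2 scale. Atf3 fell by 2.28 (SE 0.33, edgeR adjusted p = 1.21e-04), Jun by 1.27 (SE 0.18, edgeR adjusted p = 9.16e-05) and Gadd45b by 1.22 (SE 0.21, edgeR adjusted p = 4.42e-04). All 5 were lower in cortical nuclei in 3 of 3 libraries. Counts at an unadjusted p under 0.05 were 1 higher and 4 lower among the 5 heat shock genes and 0 higher and 3 lower among the 5 early genes, and DESeq2 called 0 higher in either group. Hspa8 had a log2 fold change of -0.79 (edgeR adjusted p = 3.50e-05), under the size limit, and was called lower at -1.27 with library totals and at -1.17 with a limit of 500 genes. With library totals 7 of the 10 genes were called lower, Dnajb1 (-1.09) being the other addition, where 5201 of all 18845 tested genes were. With halved class limits, Jun at -0.93 missed the size limit. Without replicate 3, Jun (-0.98) and Gadd45b (-0.90) missed the size limit, Hspa1a went to -2.41 without replicate 3 and to -3.63 without replicate 1, and Atf3 to -2.91 without replicate 1. Without the replicate block, Atf3 was at -1.97 with an adjusted p of 0.0775 in edgeR's test.

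In hindbrain against remaining nuclei, 5 of 10 genes were called lower, where 4.77% of all tested genes were, and 0 were called higher, where 1.24% were. Hspa1a fell by 2.08 (SE 0.33, edgeR adjusted p = 0.00118), Hspa1b by 1.44 (SE 0.33, edgeR adjusted p = 0.0102), Atf3 by 1.69 (SE 0.34, edgeR adjusted p = 0.00540), Gadd45b by 1.31 (SE 0.22, edgeR adjusted p = 0.00170) and Egr1 by 1.07 (SE 0.22, edgeR adjusted p = 0.00608) on the log2 scale. Each was lower in hindbrain nuclei in 3 of 3 libraries. At an unadjusted p under 0.05, 0 were higher and 7 lower, and DESeq2 called 0 higher. Without replicate 3, Hspa1b (-1.51, adjusted p = 0.0619), Egr1 (-1.07, adjusted p = 0.0659) and Atf3 (-1.41, adjusted p = 0.0984) were no longer called by edgeR, and Atf3 went to -2.27 without replicate 1. Atf3 at -0.98 with halved class limits and Egr1 at -0.94 with a limit of 2000 genes missed the size limit. Without the replicate block, 4 of the 5 were not called, with edgeR adjusted p of 0.253 for Hspa1a, 0.409 for Hspa1b, 0.386 for Atf3 and 0.192 for Gadd45b.

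In cortical against hindbrain nuclei, Egr1 alone of the 10 genes was called higher, where 8.76% of all tested genes were, and 0 were called lower, where 13.8% were. Egr1 rose by 1.19 (SE 0.20, edgeR adjusted p = 2.91e-04) and was higher in cortical nuclei in 3 of 3 libraries, though replicate 1 had 10.8 CPM in cortical and 10.6 CPM in hindbrain nuclei. It missed the size limit without replicate 2 (0.94) and with library totals (0.74). Hspa1a had a log2 fold change of -0.83 (SE 0.36, edgeR adjusted p = 0.0625) and Hspa1b of -0.84 (SE 0.35, edgeR adjusted p = 0.0558). Hsph1 had 0.56 (edgeR adjusted p = 6.25e-05), which became 0.10 with library totals. At an unadjusted p under 0.05, 2 of the genes were higher and 4 lower, and DESeq2 called 0 lower. With library totals, Hspa1a, Hspa1b, Jun and Atf3 were called lower, where 4814 of all 18845 tested genes were. Hspa1a was also called lower without replicate 1 (-1.17, edgeR adjusted p = 6.34e-04) and Hspa1b without replicate 2 (-1.27, edgeR adjusted p = 0.00685). The Hspa1a value moved with the class limits, to -1.64 with doubled limits (edgeR adjusted p = 6.02e-04), where it was called, and to -0.14 with halved limits (edgeR adjusted p = 0.564).

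Depth and markers of other cell types also differed between classes, not all in the direction of the members. Cortical nuclei were deeper than remaining ones, and their mean mitochondrial shares were 0.024%, 0.018% and 0.015%, against 0.051%, 0.025% and 0.035% in remaining nuclei. Endothelial markers summed to 7.39, 4.38 and 5.65 CPM in cortical nuclei, to 17.3, 10.2 and 10.1 CPM in hindbrain nuclei and to 27.4, 7.20 and 15.7 CPM in remaining nuclei. Microglial markers summed to 20.9, 30.9 and 37.4 CPM in cortical, 56.0, 70.0 and 86.6 CPM in hindbrain and 49.6, 59.9 and 85.3 CPM in remaining nuclei, and the part of any of these in the differences was not tested. Fits were repeated after each nucleus was thinned to 5000 UMIs, with shallower nuclei left out and the classes redrawn from the thinned counts. Hspa1a was then at -2.47, Hspa1b at -2.46 and Atf3 at -1.63 in cortical against remaining nuclei, all still called by edgeR. Jun at -1.0 and Gadd45b at -0.95 were not. With the classes unchanged, thinned Hspa1a had 7.81, 1.19 and 4.64 CPM in cortical and 14.5, 20.6 and 103 CPM in remaining nuclei. In hindbrain against remaining nuclei, Egr1 was at -0.70 after thinning and missed the size limit. When instead 93, 28 and 80 nuclei with at least 3 glial or vascular UMIs per 5000 were left out, without thinning, Hspa1a was at -2.75, Hspa1b at -2.21 and Atf3 at -2.22, and Gadd45b at -0.99 missed the size limit.

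Within libraries, Hspa1a and Hspa1b were detected in few nuclei and abundant in a handful. Hspa1a had 0 UMIs in 92.9%, 96.7% and 94.9% of nuclei of replicates 1, 2 and 3, yet up to 20, 71 and 82 UMIs in a single nucleus. At least 10 UMIs of it were found in 5, 3 and 26 nuclei. The 1% of nuclei with most Hspa1a held 44.9%, 71.0% and 76.6% of its UMIs, and for Hspa1b the shares were 46.7%, 57.4% and 69.0%. Hsph1 lay at the other end, with shares of 10.6%, 7.72% and 7.89% and at most 9, 11 and 6 UMIs in a nucleus. Over genes with 100 to 5000 UMIs the median share was 15.4%, 12.8% and 13.9%, and Hspa1a exceeded 95.6%, 99% and 99.4% of them. This share depends on a gene's total, so low totals raise it, as for Fos with 29 UMIs and a share of 93.1% in replicate 1.

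At a matched depth of 5000 UMIs, the variance over the mean, which is near 1 for random sampling of a gene equal in all nuclei, was 4.33, 6.82 and 16.9 for Hspa1a by replicate. It was 1.11, 1.07 and 1.07 for Hsph1 and 0.983, 1.01 and 1.01 for Dnajb1. Among the early genes it was highest for Gadd45b, at 2.10, 2.49 and 5.10, and Atf3 had 1.58, 1.71 and 1.98. Jun had 1.13, 1.20 and 1.65, Egr1 had 1.31, 1.37 and 1.18, and Fos had 0.998, 0.988 and 1.08. For Hspa1a in replicate 3, it was 9.08 in cortical, 3.04 in hindbrain and 19.3 in remaining nuclei. Hspa8 had 2.14, 1.64 and 2.79, and 24, 43 and 29 nuclei held at least 10 of its UMIs before thinning.

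**Figure D2:**
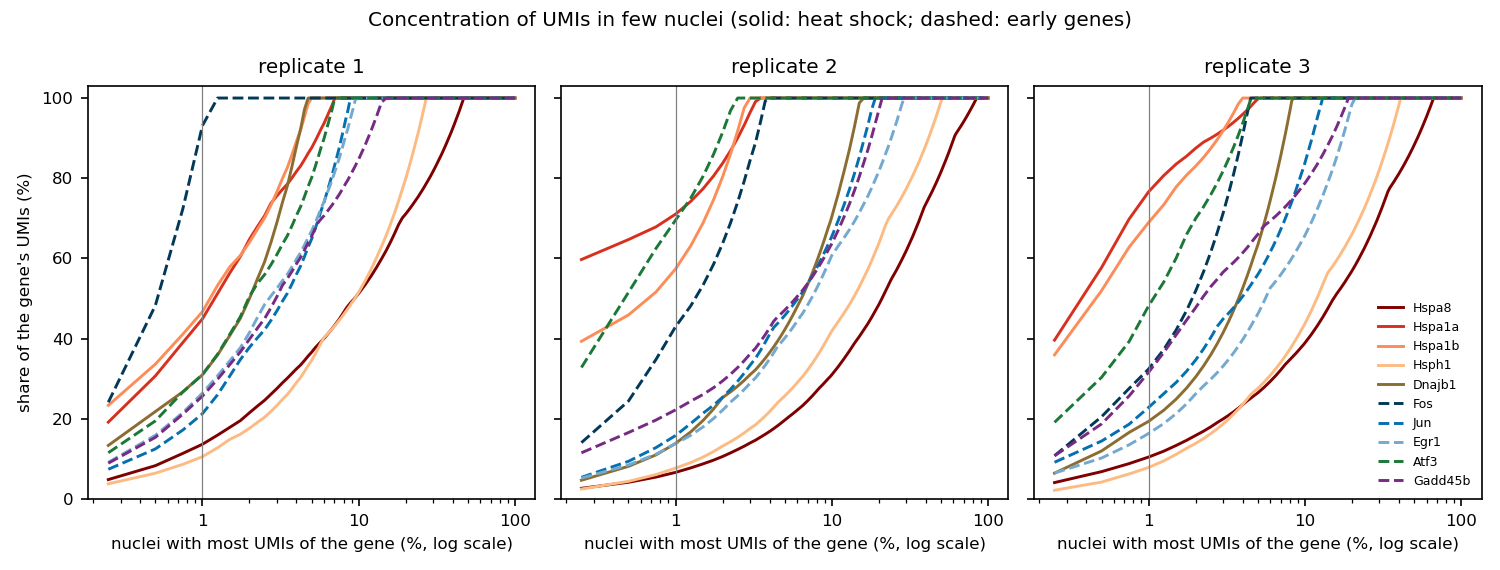
Share of each gene's UMIs (percent, y) held by the nuclei with most of it (percent of nuclei, log x), by library, with a grey line at 1% of nuclei. Hspa1a and Hspa1b hold 44.9% to 76.6% of their UMIs in the top 1%, and Hspa8 and Hsph1 hold 6.66% to 13.7%.

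All 10 members had a lower level in the deepest than in the shallowest nuclei of each library. Nuclei of each library were ordered by total UMIs and cut in 5 equal groups. Hspa1a had 141, 14.6 and 130 CPM in the shallowest of these groups of replicates 1, 2 and 3, against 1.60, 1.62 and 1.76 CPM in the deepest. These are ratios of 88.2, 9.02 and 74.1, where the median gene had 1.56, 1.41 and 1.58. Gadd45b had ratios of 24.6, 3.56 and 14.1, Jun of 8.72, 3.16 and 10.1 and Atf3 of 11.2, 6.36 and 9.57. Hsph1 stayed close to the median gene, at 1.86, 1.54 and 1.56. Egr1 had 9.08 in replicate 1 but 1.79 and 2.11 in replicates 2 and 3. The share of cortical nuclei moved with depth, at 15.1%, 34.1% and 15.2% of the shallowest group and 69.2%, 82.9% and 86.7% of the deepest. How far class, depth and each gene's level depend on one another was not tested.

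**Figure D3:**
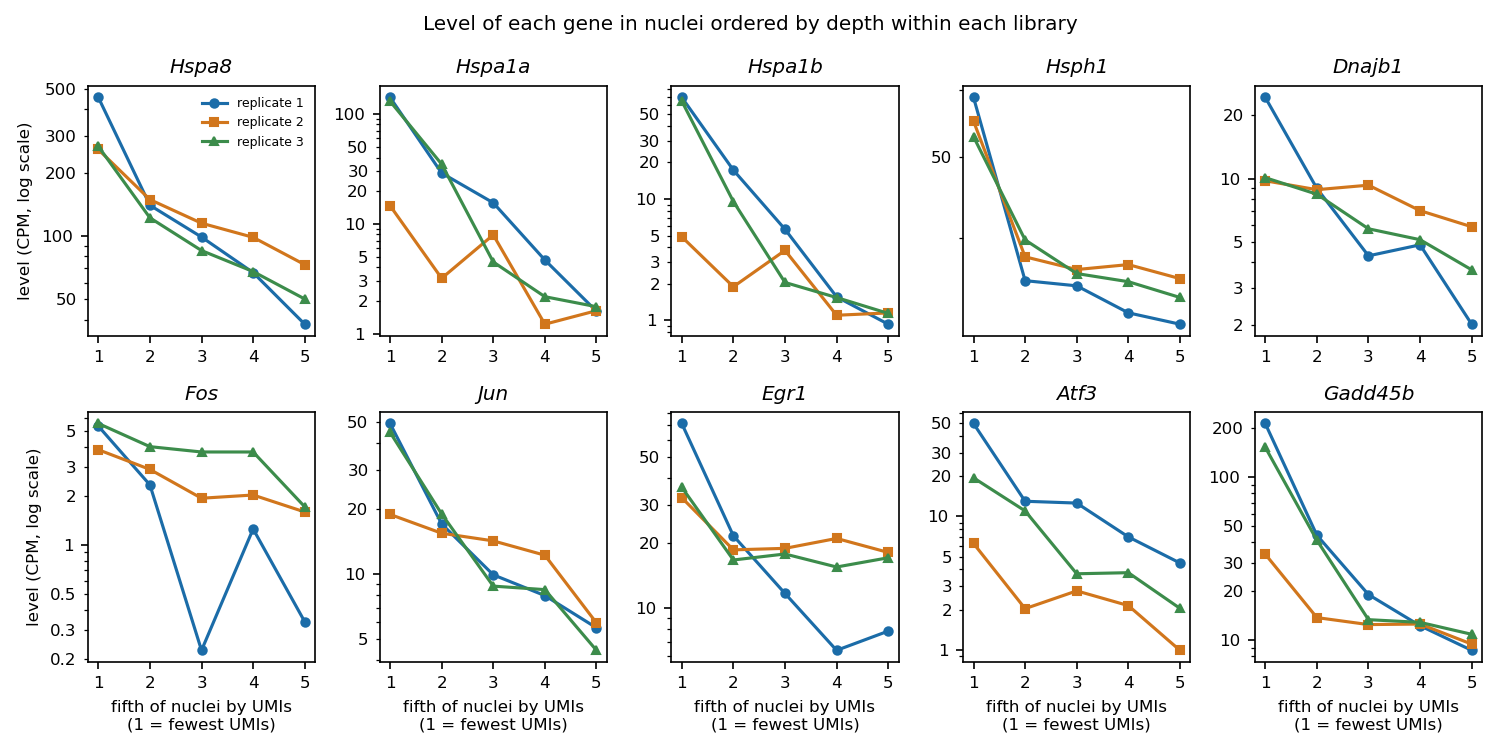
Level of each gene (CPM, log axis, scaled per gene) in 5 equal groups of nuclei ordered by total UMIs within each library, with 1 line per library. Hspa1a lies at 141, 14.6 and 130 CPM in the shallowest group of replicates 1, 2 and 3 and between 1.60 and 1.76 CPM in the deepest.

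Co-detection was measured after each nucleus was thinned to 5000 UMIs, which left 2018, 2516 and 3361 nuclei, because deep nuclei hold more genes of every kind. The odds ratio compares the odds of an early gene UMI in nuclei with and without a heat shock UMI, combined over the 3 classes by the Mantel-Haenszel method. Nuclei are not replicates, so the 3 library values are given without a p. For a UMI of Hspa1a, Hspa1b, Hsph1 or Dnajb1 with any of the 5 early genes it was 1.97, 1.49 and 1.59 in replicates 1, 2 and 3, with a geometric mean of 1.67. The geometric mean was 2.93 at 3000 UMIs and 1.4 at 8000 UMIs, so its size depends on the thinning depth. An odds ratio of at least 2 in every library with this heat shock set was reached by 0.338% of 13628 genes, among them Jun (lowest 2.13). Gadd45b (lowest 1.64) and Egr1 (lowest 1.24) did not reach it. Atf3 did (lowest 3.16), but it and Fos were detected in under 1% of some library and are not among those genes.

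The members of the heat shock set did not behave alike. Hspa1a or Hspa1b, a set chosen after the values were seen, gave 8.47, 2.97 and 7.54, with a geometric mean of 5.74 that was 15.3 at 3000 UMIs and 3.78 at 8000 UMIs. Hsph1 gave 1.39, 1.41 and 1.4, and it was detected in 15.2%, 17.2% and 17.9% of nuclei, so it supplied most of the nuclei in the larger set. Dnajb1 gave 3.89, 1.38 and 1.69, and Hspa8 gave 2.01, 1.29 and 1.55. With Hspa1a or Hspa1b, 6.04% of 13630 genes had an odds ratio of at least 2 in every library. Jun (lowest 5.86) and Gadd45b (lowest 7.07) were among them and exceeded 99.5% and 99.6% of these genes by their lowest value, and Dnajb1 (lowest 2.51) was also among them, while Egr1 (lowest 1.26) was not.

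Of the early genes, Atf3 and Gadd45b followed the HSP70 copies most closely. Atf3 had odds ratios of 13.2, 10.5 and 21.7 with Hspa1a or Hspa1b, Gadd45b of 10.1, 7.07 and 18.6, and Jun of 9.27, 5.86 and 11.9. Egr1 had 8.63, 1.26 and 4.63, and Fos had 5.84, 1.94 and 2.91. The order of the last pair changed between libraries, and Fos was found in only 0.297%, 1.19% and 1.25% of thinned nuclei. Among the early genes themselves, Atf3 and Jun had 5.49, 7.26 and 14.0, Atf3 and Gadd45b 9.32, 4.37 and 11.2, and Fos and Egr1 3.55, 2.51 and 2.21. Hspa1a and Hspa1b had 30.5, 20.1 and 93.8 with each other, a value that reads split between the copies could raise.

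**Figure D4:**
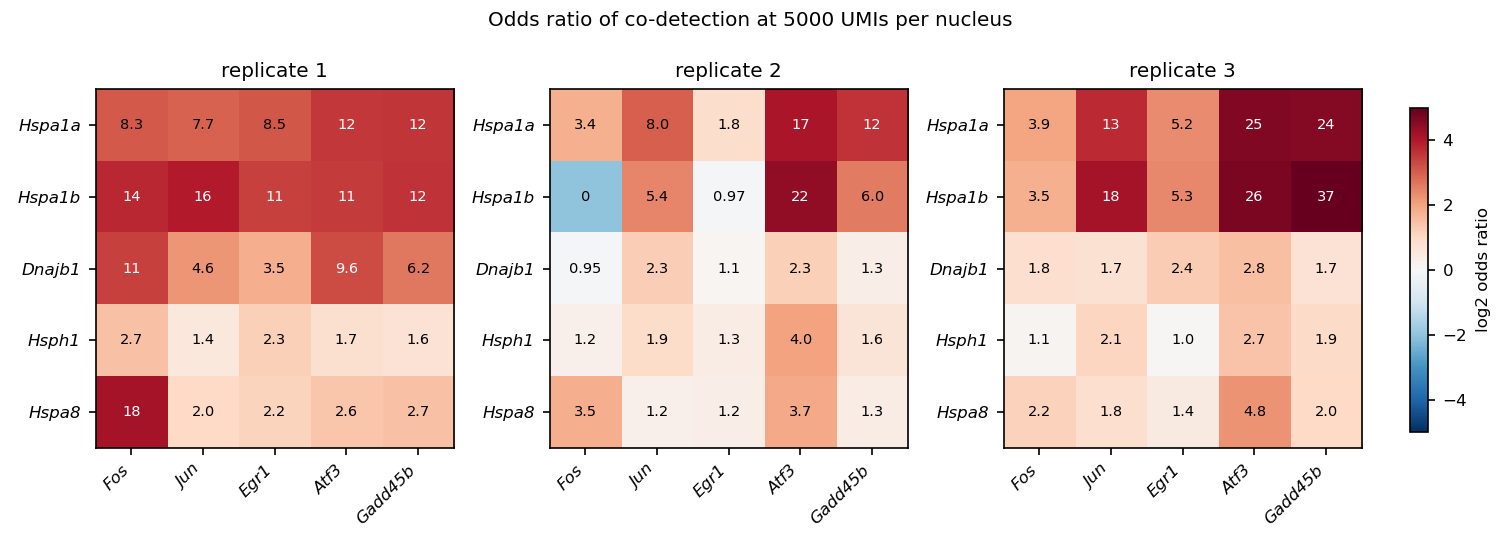
Odds ratio of co-detection at 5000 UMIs per nucleus between each heat shock gene (rows) and each early gene (columns), combined over classes, by library; colour is the log2 odds ratio, held at -2 where the ratio is 0. The rows of Hspa1a and Hspa1b lie at 11.4 to 26.3 with Atf3 and at 5.99 to 37.3 with Gadd45b, and the row of Hsph1 lies between 1.03 and 4.00.

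By class, the odds ratio for Hspa1a or Hspa1b with any early gene was highest in remaining nuclei in replicates 2 and 3. It was 5.49, 0.747 and 2.66 in cortical nuclei, 11.5, 1.53 and 4.98 in hindbrain nuclei and 9.86, 19.6 and 32.6 in remaining nuclei of replicates 1, 2 and 3. The nuclei with both were few, at 10, 3 and 10 cortical, 13, 3 and 12 hindbrain and 14, 14 and 33 remaining nuclei. In remaining nuclei, 66.7%, 82.4% and 86.8% of those with an Hspa1a or Hspa1b UMI also had an early gene UMI, against 16.9%, 19.3% and 16.8% of those without. In cortical nuclei the shares were 47.6%, 16.7% and 40.0%, against 14.2%, 21.1% and 20.0%. Free RNA sets a background for such shares. Hcrt, a lateral hypothalamic transcript that cortical neurons lack, was found in 22.1%, 37.0% and 13.1% of thinned cortical nuclei, more than the 2.49%, 1.34% and 1.41% with Hspa1a or Hspa1b. Other such transcripts gave other shares in replicates 1, 2 and 3. Oxt was found in 4.73%, 2.60% and 5.71%, also more than the HSP70 genes, and Pmch in 1.66%, 2.08% and 0.170%. Avp was found in 0.118%, 0.223% and 0.339%, Hbb-bs in 0.237%, 0.595% and 0.509% and Hba-a1 in 0%, 0.149% and 0.396%, all less. Free RNA of the HSP70 genes was not measured itself, so whether a single UMI of them in a cortical nucleus is background cannot be told apart here.

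Nuclei with more than a single HSP70 UMI formed a small set in which several members were high at once. At least 2 UMIs of Hspa1a and Hspa1b per 5000 were found in 17, 7 and 39 nuclei of replicates 1, 2 and 3, and 0 in 1952, 2469 and 3271. The nuclei were picked on those genes, so the values below describe the other members only and carry no test. At least 2 of the 5 early genes were detected in 2.00%, 2.23% and 1.83% of nuclei with 0 HSP70 UMIs, in 24.5%, 10.0% and 15.7% of nuclei with 1 and in 76.5%, 85.7% and 84.6% of nuclei with 2 or more. Gadd45b was found in 82.4%, 100% and 94.9% of nuclei with 2 or more, against 5.23%, 5.22% and 5.78% of those with 0. Atf3 was found in 41.2%, 57.1% and 53.8%, against 2.66%, 0.810% and 1.41%, and Jun in 41.2%, 71.4% and 71.8%, against 3.53%, 6.03% and 4.56%.

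In the same nuclei Egr1 was found in 58.8%, 42.9% and 33.3%, against 3.79%, 8.99% and 6.79% of nuclei with 0. Fos was found in 1, 0 and 2 nuclei of the set. Hspa8 stood at 671, 1486 and 1185 CPM, against 65.7, 123 and 79.9 CPM, and Hsph1 at 70.6, 286 and 179 CPM, against 33.7, 38.1 and 38.5 CPM. Dnajb1 rested on 3, 1 and 5 UMIs. The set was led by remaining nuclei in replicates 2 and 3, with 8, 6 and 26 remaining, 7, 1 and 6 hindbrain and 2, 0 and 7 cortical nuclei.

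**Figure D5:**
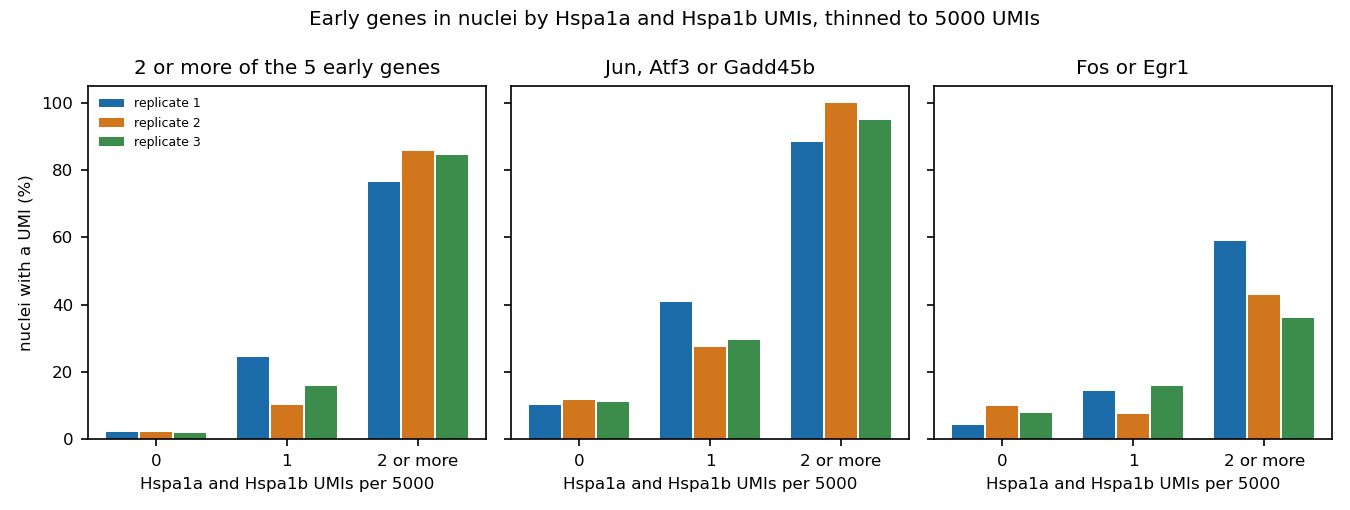
Share of nuclei (percent) with at least 2 early genes (left), with Jun, Atf3 or Gadd45b (middle) and with Fos or Egr1 (right), by the number of Hspa1a and Hspa1b UMIs per 5000 and by library. Jun, Atf3 or Gadd45b are found in 88.2%, 100% and 94.9% of the 17, 7 and 39 nuclei with 2 or more, and in 10.1%, 11.5% and 10.9% of those with 0.

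Other features moved with the HSP70 UMIs, and their part in the result was not tested. Nuclei with 2 or more had medians of 7079, 8340 and 8410 UMIs before thinning, against 10398, 21676 and 15273 UMIs in those with 0. Their mean mitochondrial share was 0.080%, 0.11% and 0.14%, against 0.015%, 0.018% and 0.014%. Of 25 glial and vascular markers, 12, 10 and 18 had a UMI in the nuclei with 2 or more, against 20, 22 and 24 in those with 0, a count that grows with the number of nuclei pooled. Their summed level, which does not, was 388, 714 and 436 CPM in the nuclei with 2 or more, against 103, 110 and 128 CPM. Microglial markers gave 153, 343 and 92.3 CPM of that sum, against 39.9, 49.4 and 63.7 CPM. Endothelial markers gave 118, 85.7 and 118 CPM, against 12.8, 5.75 and 6.30 CPM. The replicate 2 values rest on 7 nuclei and few UMIs, and 2 of the 5 microglial markers had a UMI there. P2ry12, the most abundant of the 5 in each class and library, was at 0 in these nuclei, as were C1qa and C1qb. Aqp4, Gja1, C1qb, Cldn5 and Ly6c1 were at 0 in the set in all 3 libraries, but so few nuclei were pooled that this says little, since C1qb, Cldn5 and Ly6c1 were at or under 0.610 CPM in every class and library. Cortical projection markers summed to 494, 429 and 523 CPM in the set, against 676, 778 and 773 CPM, and 6 markers of other projection classes to 341, 629 and 262 CPM, against 129, 161 and 72.3 CPM. Of those 6, only 2, 3 and 4 had a UMI in the set, Hcrt in each library, and Pou4f1 and Dbh were at 0 in all 3. The part of free Hcrt RNA in this sum was not tested. The caller marked 0, 0 and 3 of these nuclei as doublets. With the nuclei high in glial or vascular markers left out, the odds ratio for Hspa1a or Hspa1b with any early gene had a geometric mean of 4.82, against 5.74 with them.

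Other chaperone and stress genes were followed as lists. Of 37 tested heat shock and chaperone genes outside the 10, 2 were called higher and 6 lower in cortical against hindbrain nuclei, where 8.76% and 13.8% of all tested genes were, so the counts are near the background. DESeq2 called 2 higher and 4 lower. Dnajb5 (15.1 ± 1.73 CPM in cortical and 9.66 ± 0.919 CPM in hindbrain nuclei, SD over 3 libraries), an HSP40 family member, rose by 1.09, and Hspa12a, a distant HSP70 relative, rose by 1.02. Dnajb2, a neuronal HSP40 that acts on ubiquitinated clients, fell by 1.22 (11 ± 1.39 CPM in cortical and 35.0 ± 7.94 CPM in hindbrain nuclei), and Ahsa2, an HSP90 co-chaperone relative, fell by 1.12. The list's median log2 fold change was -0.11, beside -0.06 over all tested genes. In cortical against remaining nuclei, 0 were higher and 5 lower, namely Bag3, Hmox1, Hspb1, Hspb8 and Ubb, named after their values were seen, and in hindbrain against remaining nuclei 0 were called in either direction by edgeR or by DESeq2. At an unadjusted p under 0.05 in edgeR's test, 10 were higher and 14 lower in cortical against remaining nuclei, and 5 were higher and 5 lower in hindbrain against remaining nuclei. DESeq2 called 0 higher and 3 lower in cortical against remaining nuclei, and over all tested genes edgeR called 5.64% higher and 16.0% lower there.

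Of 37 tested early genes outside the 10, 13 were called higher, where 8.76% of all tested genes were, and 6 lower, where 13.8% were, in cortical against hindbrain nuclei, with a median of 0.43 on the log2 scale beside -0.06 over all tested genes. Egr3 rose by 2.44 (8.75 ± 3.84 CPM in cortical and 2.18 ± 0.284 CPM in hindbrain nuclei) and Egr4 by 2.16, both zinc finger factors of the Egr1 family. Nr4a1, an orphan nuclear receptor, rose by 2.22, Dusp6, a phosphatase of the MAP kinase pathway, by 2.14, and Homer1, which encodes a synaptic scaffold, by 2.19 (307 ± 73.2 CPM in cortical and 90.7 ± 11.1 CPM in hindbrain nuclei). The 6 called lower were Fosl1, Gadd45a, Gem, Ier3, Maff and Myc, named after their values were seen. In cortical against remaining nuclei 9 were called higher and 8 lower, where 5.64% and 16.0% of all tested genes were. In hindbrain against remaining nuclei 1 was called higher and 8 lower, where 1.24% and 4.77% were. DESeq2 called 12 higher and 6 lower, 8 and 7, and 1 and 7 in the same order of comparisons. Of 13 tested endoplasmic reticulum stress genes, 0 were called in any of the 3 comparisons by edgeR or DESeq2. At an unadjusted p under 0.05 in edgeR's test, 0 of them were higher and 6 lower in cortical against hindbrain, 1 higher and 7 lower in cortical against remaining, and 2 higher and 2 lower in hindbrain against remaining nuclei.

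Genes that rose and fell with the members over nuclei were ranked by the lowest of the 3 within-library correlations of log-transformed thinned UMIs, as a description over nuclei that share library and depth. For the sum of Hspa1a, Hspa1b, Hsph1 and Dnajb1, the 5 nearest of 11689 genes were Gadd45b (Pearson's r of 0.28, 0.20 and 0.44 over the 2018, 2516 and 3361 nuclei), Ccnb1ip1 (0.25, 0.18 and 0.38), Ccnf (0.21, 0.18 and 0.18), Ier5 (0.21, 0.17 and 0.44) and Jun (0.17, 0.15 and 0.31). The median gene had 0.0062, 0.0070 and 0.0070. For the sum of the 5 early genes, the nearest were Ier5 (0.33, 0.24 and 0.47), Ccnb1ip1 (0.37, 0.23 and 0.46), Kdm6b (0.28, 0.20 and 0.28), Hspa5 (0.21, 0.18 and 0.29) and Gm15726 (0.20, 0.18 and 0.19), where the median of 11687 genes was 0.012, 0.0048 and 0.0074. Hspa5 encodes the HSP70 of the endoplasmic reticulum, and Ier5 is an early gene that acts on heat shock factor. In sparse counts such weak correlations are no finding in themselves. Ccnb1ip1 and Ier5 were among the 5 nearest for both sums.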

How the data were processed

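The deposited UMI counts per gene and barcode were made by the authors with Cell Ranger, whose version is 6.1.1 per the file headers and 7.0.1, with the build mm10, per the submitters' processing notes. Whether introns or strand were used, and how barcodes were selected, is not stated in the labels, and exon-only counting would lower genes with much unspliced RNA. Counts were summed per library and class, and 9 sums were fitted with edgeR 4.0.16 (R 4.3.3), with TMM, filterByExpr and the library as a block (4 residual degrees of freedom). Tox, Meis1 and Meis2 were left out before adjustment. Standard errors are the log2 fold change over the square root of F. Sums of 1 library come from 1 preparation, and their deviations correlated at 0.34 to 0.64 between classes, so the library number pairs them. CPM are computed from plain totals. Intervals cover counting error only. Thinning drew 5000 UMIs per nucleus without replacement, and shallower nuclei were left out. Thinned fits used classes redrawn from the thinned counts, while thinned levels and odds ratios kept the classes of the full counts. Doublets were marked with Scrublet (scanpy 1.11.5) and kept. Thinning and a plain odds ratio, not combined over classes, were tried on simulated data. The fit was tried on simulated sums without a library effect and with a smaller size limit than that of the calls. Alternatives were DESeq2 1.42.0, other scaling, filters, limits, depths and left-out libraries. Named genes were all 10 members, up to 5 called genes a list with the largest change in cortical against hindbrain nuclei and at least 5 CPM in either class, and the 5 genes nearest each sum with a UMI in at least 2% of nuclei. Others are listed by count or as called sets. The members, lists and tests were chosen with earlier results of these data known, and so were the limits that define the classes.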

Additional observations from a re-analysis of the deposited data

Results flagged for a closer look

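Replicate 2 held 8325 barcodes outside the limits, which enter no comparison and were looked at because the members had UMIs there well above the limit that a count of 0 allows (0.509 CPM). Summed over these barcodes, Hspa8 had 1052 CPM, against 101 CPM in nuclei within the limits, a ratio of 10.4 where the median gene had 1.11. Hsph1 had 144 CPM, against 37.3 CPM, and Dnajb1 had 29.7 CPM, against 7.16 CPM. Hspa1a had 16.0 CPM, against 3.23 CPM, and Hspa1b had 8.49 CPM, against 1.78 CPM. Egr1 had 100 CPM, against 19.6 CPM, and Gadd45b had 40.7 CPM, against 12.2 CPM. Jun had 32.1 CPM, against 10.2 CPM, Atf3 had 7.30 CPM, against 1.87 CPM, and Fos had 4.58 CPM, against 1.97 CPM. All 10 genes were higher outside the limits, but so was the median gene. The ratios of the members exceeded those of 80.5% (Fos) to 99.6% (Hspa8) of 15152 genes with at least 100 UMIs within the limits. The median such barcode had 679 UMIs, and these barcodes had a mean mitochondrial share of 0.054%, against 19493 UMIs and 0.020% within the limits, and the part of depth in the difference was not tested.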

How the results depend on the processing

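Of 420 log2 fold changes of members under alternatives, 380 kept their direction and side of the threshold, 19 lost the call, 10 gained it and 11 changed sign. Besides scaling, the block, thinning, marker-rich nuclei and left-out replicates, calls were lost with halved class limits (Jun -0.93 in cortical and Atf3 -0.98 in hindbrain against remaining nuclei) and at 2000 genes (Egr1 -0.94 in hindbrain against remaining nuclei). The changes of sign were all in genes not called. In cortical against hindbrain nuclei they were Fos (-0.21 with library totals, and -0.09 without replicate 2 to 0.53 without replicate 3) and Gadd45b (-0.35 with library totals, -0.06 without the replicate block, and -0.31 without replicate 2 to 0.37 without replicate 3). In cortical against remaining nuclei they were Hsph1 (-0.11) and Egr1 (-0.36) with library totals, Egr1 also from -0.19 without replicate 2 to 0.43 without replicate 1 and at a limit of 500 genes (-0.26), and Fos from -0.75 without replicate 2 to 0.07 without replicate 1 and with doubled class limits (0.16).

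Counts of called genes over the whole table moved by over 1.5 times as follows. In cortical against hindbrain nuclei, library totals gave 935 higher and 4814 lower and thinning 995 and 1639, against 1650 and 2599. In cortical against remaining nuclei, library totals gave 348 and 5201, thinning 565 and 1451 and doubled class limits 201 higher, against 1062 and 3007. In hindbrain against remaining nuclei, the fit without the replicate block gave 115 and 214, halved limits 146 and 310, doubled limits 797 and 1738 and thinning 109 and 219, against 233 and 898. Thinned fits, with classes redrawn from the thinned counts, tested 15219 genes. Leaving out a replicate gave 1504 to 1830 higher and 2323 to 2640 lower, 958 to 1060 and 2370 to 3005, and 146 to 223 and 276 to 831 in the same order of comparisons, with the lowest of the last pair without replicate 3. Without the block, the spread between libraries enters the error, and with library totals the share of higher calls fell to 16.3% in cortical against hindbrain nuclei, against 38.8%, and to 6.27% in cortical against remaining nuclei, against 26.1%. The other causes were not tested.

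The co-detection odds ratio of 1.67 was 2.93 at 3000 UMIs, 1.4 at 8000 UMIs and 5.74 for Hspa1a or Hspa1b alone, a set added after the data had been seen, and 1.54 to 1.77 with a replicate left out. For that set it was 15.3 at 3000 UMIs, 3.78 at 8000 UMIs and 4.73 to 7.99 with a replicate left out. Deeper thinning limits leave out shallow nuclei, where Hspa1a was highest, and also change how often a gene is detected in a nucleus. The part of either in these values was not tested. Low counts limit Fos (29, 135 and 185 UMIs per library), Hspa1b (214, 122 and 406) and Atf3 (277, 128 and 303).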
